A study of Mus musculus with 4 samples.

Results

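The 118 genes described here had reads in both DMSO libraries and no read in either dTAG-13 library. They were chosen on the measured values, as genes with 0 reads in both dTAG-13 libraries and at least 50 scaled reads in both DMSO libraries, out of 18714 genes in the table. Genes of 7 families recognised by name (Rab, Rnf, Trim, Kif, Fbx, Slc25a and Zfp9 symbols) were left out, which removed 4 genes. Their difference between the groups is therefore a description, and any call on it below was fixed at least in part by the selection and supports nothing. RNA sequencing was performed on 2-cell embryos of the outbred ICR strain, homozygous in every library for a dTAG-tagged Nelfb allele. The 2 dTAG-13 libraries came from embryos cultured from the zygote stage for 30 hours in KSOM medium with 500 nM dTAG-13, and the 2 DMSO libraries from embryos cultured in the same way with 0.01% DMSO. Each library was a pool of 3 embryos, polyadenylated RNA was amplified with SMART-seq v4, and the reads carry no strand. The labels do not say whether the pools of a group came from separate matings or days, so any p-value measures only the spread between these pools.

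Nelfb encodes a subunit of the negative elongation factor NELF, which holds RNA polymerase II paused soon after transcription has begun. dTAG-13 joins a tagged protein to a ubiquitin ligase and so brings about its degradation. The 2-cell stage is when the mouse embryo begins broad transcription of its own genome while RNA stored in the egg is removed. At this stage many genes better known from differentiated tissues are transcribed at low levels.

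A scaled read is a read count divided by the size factor of its library. Reads in genes numbered 38112685 and 33897568 under dTAG-13 and 18923479 and 16522506 under DMSO, so the libraries in which these genes had no read were the deeper ones. A count of 0 allows up to 3 reads, or 1.87 and 2.09 scaled reads for the dTAG-13 pools; this limit covers counting error only. In pooled embryos, fewer cells that hold a transcript and less transcript per cell cannot be told apart. The tagged gene itself, Nelfb, had 63.4 and 35.6 scaled reads under dTAG-13 and 182.5 and 69.8 under DMSO; dTAG-13 acts on the protein, so this does not check the labels. All 14 markers of the 2-cell embryo that were looked for, among them Zscan4d and Dppa3, had reads in both groups. Their levels were not alike, with sums of 182400 and 212400 scaled reads under dTAG-13 and 407700 and 539300 under DMSO. Much of this gap came from Obox5, with 12983 and 13181 under dTAG-13 against 145126 and 236754 under DMSO. Not all of the markers were lower. Eif1a and Zp3 were higher in both dTAG-13 libraries, and Dppa3 had 110338 and 127232 under dTAG-13 against 80510 and 110125 under DMSO. Summed reads of 6 Y-linked genes were 3167 and 11.2 under dTAG-13 and 2888 and 930.1 under DMSO, so dTAG-13 replicate 2 stood apart in these genes; 9 of the 118 genes lie on chromosome X, and the part of this difference in their values was not tested.

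The 118 genes were mostly low in the DMSO embryos and mixed in function. They included tissue-specific transcription factors, immune receptors and chemokines, genes of synapses and ion channels, hair keratins, odorant receptors, and enzymes and genes of organelles and transport. Their DMSO values ran between 50.4 and 483 scaled reads in DMSO replicate 1, with a median of 85.9, and between 50.3 and 536 in DMSO replicate 2, with a median of 99.8. These values rest on 42 to 402 reads in replicate 1 and 31 to 330 in replicate 2. Against the mean limit of 1.98 scaled reads in the dTAG-13 libraries, taken as 3 reads per library, the genes were at least 25.8-fold to at least 255-fold lower with dTAG-13, with a median of at least 48.3-fold. All 118 were lower in the limma test over all genes (adjusted p under 0.05), where 9.79% of 15978 tested genes were lower. The authors' deposited table had 58 of the 118 as lower, where 8.47% of the genes listed were. Both counts follow at least in part from the way the genes were chosen, and nothing is read from them. With either dTAG-13 library left out, limma called 0 genes in the whole table. At an unadjusted p under 0.05 it then placed 2171 genes of the table lower and 1348 higher without dTAG-13 replicate 1, and 2471 lower and 1408 higher without dTAG-13 replicate 2.

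The promoter windows of 3 of these genes are shown because they carry the same short box in front of the start site and differ in CpG content. They are RefSeq windows on GRCm38.p6 with 250 bases before and 50 after the annotated start, written 5′ to 3′ on the strand of the gene, and capitals mark the box TATAAA.
Cyr61 (Ccn1), chr3:145649936-145650235, minus strand: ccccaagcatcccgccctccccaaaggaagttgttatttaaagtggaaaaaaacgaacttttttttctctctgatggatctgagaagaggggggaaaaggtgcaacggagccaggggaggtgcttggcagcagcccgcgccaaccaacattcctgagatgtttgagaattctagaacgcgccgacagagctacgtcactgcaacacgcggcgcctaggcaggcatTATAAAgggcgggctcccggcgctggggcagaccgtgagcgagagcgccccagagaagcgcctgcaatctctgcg
Adamts1, chr16:85803064-85803363, minus strand: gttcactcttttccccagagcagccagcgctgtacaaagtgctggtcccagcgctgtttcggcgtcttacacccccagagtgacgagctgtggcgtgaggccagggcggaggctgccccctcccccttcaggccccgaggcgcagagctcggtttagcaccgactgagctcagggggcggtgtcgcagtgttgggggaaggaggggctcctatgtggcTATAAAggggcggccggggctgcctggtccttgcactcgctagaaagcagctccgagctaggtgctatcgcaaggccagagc
Krt27, chr11:99351069-99351368, minus strand: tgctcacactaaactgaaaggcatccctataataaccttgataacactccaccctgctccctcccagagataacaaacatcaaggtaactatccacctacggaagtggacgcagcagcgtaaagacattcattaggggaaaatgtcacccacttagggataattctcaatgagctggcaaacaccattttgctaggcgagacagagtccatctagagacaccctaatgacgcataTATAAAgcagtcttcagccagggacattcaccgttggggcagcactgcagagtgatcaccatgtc
The box begins at position -25 in the Cyr61 window, -32 in that of Adamts1 and -15 in that of Krt27, counted from the annotated start.

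The promoters were poorer in CpG than those of other genes of the table. In 100 RefSeq windows that matched 87 of the 118 genes, the median ratio of observed to expected CpG was 0.389. The median was 0.717 over 2729 windows of the other genes whose lower DMSO value lay between 50 and 200 scaled reads. That range holds most of the 118, but 85 of them had a lower value of 50 to 100. Median DMSO levels were 139 and 136 scaled reads for the other genes in the range, against 85.9 and 99.8 for the 118. Levels were thus not matched here or below. Over all 15727 windows of genes in the table the median ratio was 0.698. Over all 32851 RefSeq windows, which include genes outside the table, it was 0.384, close to that of the 118 genes. A ratio under 0.4 was found in 52.0% of the windows of the 118 genes, in 22.6% of those of the other genes in that range, and in 26.5% of those of all genes in the table. The windows shown above had ratios of 0.823 for Cyr61, 0.577 for Adamts1 and 0.37 for Krt27. TATAAA, searched on both strands, was present in 14 of the 100 windows (14.0%), in 7.88% of those of the other genes in that range and in 8.75% of all windows of genes in the table, and in 13.6% of all RefSeq windows. CCGCCC was present in 35.0% of windows of the 118 genes, 58.3% of those in that range, 55.5% of all of the table and 35.7% of all RefSeq windows. CCAAT was in 35.0% of windows of the 118 genes, 38.1% of those in that range, 38.4% of all of the table and 37.4% of all RefSeq windows. CACGTG was in 6.0% of windows of the 118 genes, 9.82% of those in that range, 9.09% of all of the table and 7.15% of all RefSeq windows. TGACGTCA was in 0 of the 100 windows, in 2.6% of those in the range, in 2.68% of all of the table and in 1.79% of all RefSeq windows. These are counts of letters in a window and do not show binding.

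**Figure D1:**
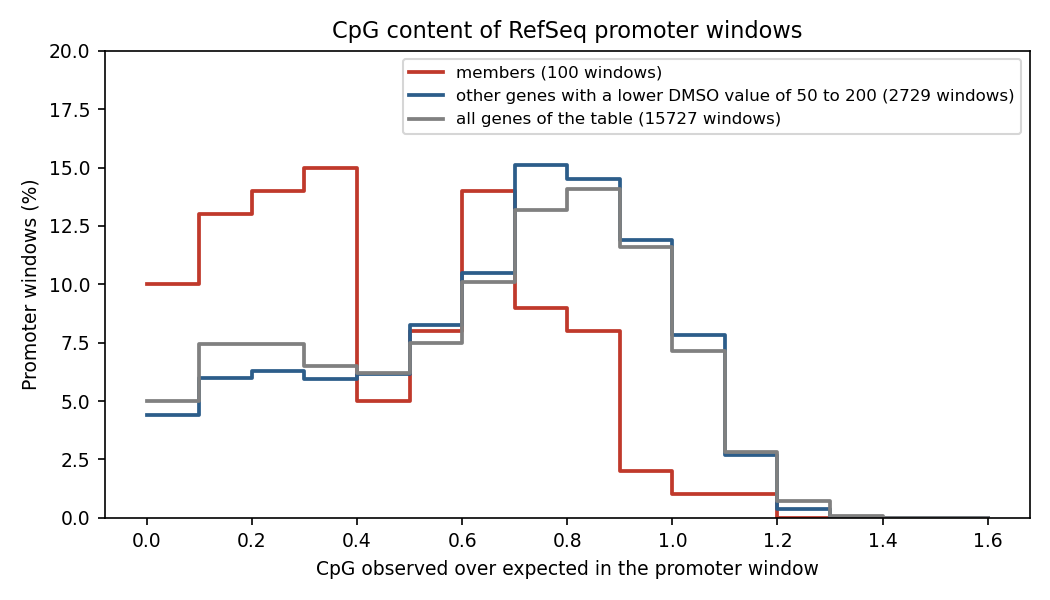
Share of RefSeq promoter windows (vertical axis, percent) by the ratio of observed to expected CpG (horizontal axis) for the 118 genes, for other genes with a lower DMSO value of 50 to 200 scaled reads, and for all genes of the table. The line of the 118 genes is highest under a ratio of 0.4, where 52.0% of its windows lie, against 22.6% and 26.5% for the other lines.

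By gene type the set held 93 protein-coding genes, 17 long non-coding genes and 5 pseudogenes among the 115 genes that matched GENCODE M21, and 3 genes did not match. Long non-coding genes made up 14.8% of the matched genes, against 8.21% of the other genes with a lower DMSO value of 50 to 200 scaled reads and 11.1% of the whole table. Genes with a single exon made up 11.3%, against 8.44% of the other genes in that range and 13.3% of the table. The median exonic length was 2.89 kb, with 3.83 kb for the other genes in that range and 3.41 kb for the table. Per kb of exon the median DMSO level of the 115 genes was 35.1 scaled reads, and that of the other genes in the range was 41.4. A gene on the opposite strand overlapped 33.0% of them, against 42.7% of the other genes in that range and 41.1% of the table, and reads of such pairs cannot be assigned to a strand here. The genes lay on 19 chromosomes with at most 10 on any one, and chromosome X held 7.83% of them, against 4.37% of the other genes in that range and 4.33% of the table.

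**Figure D2:**
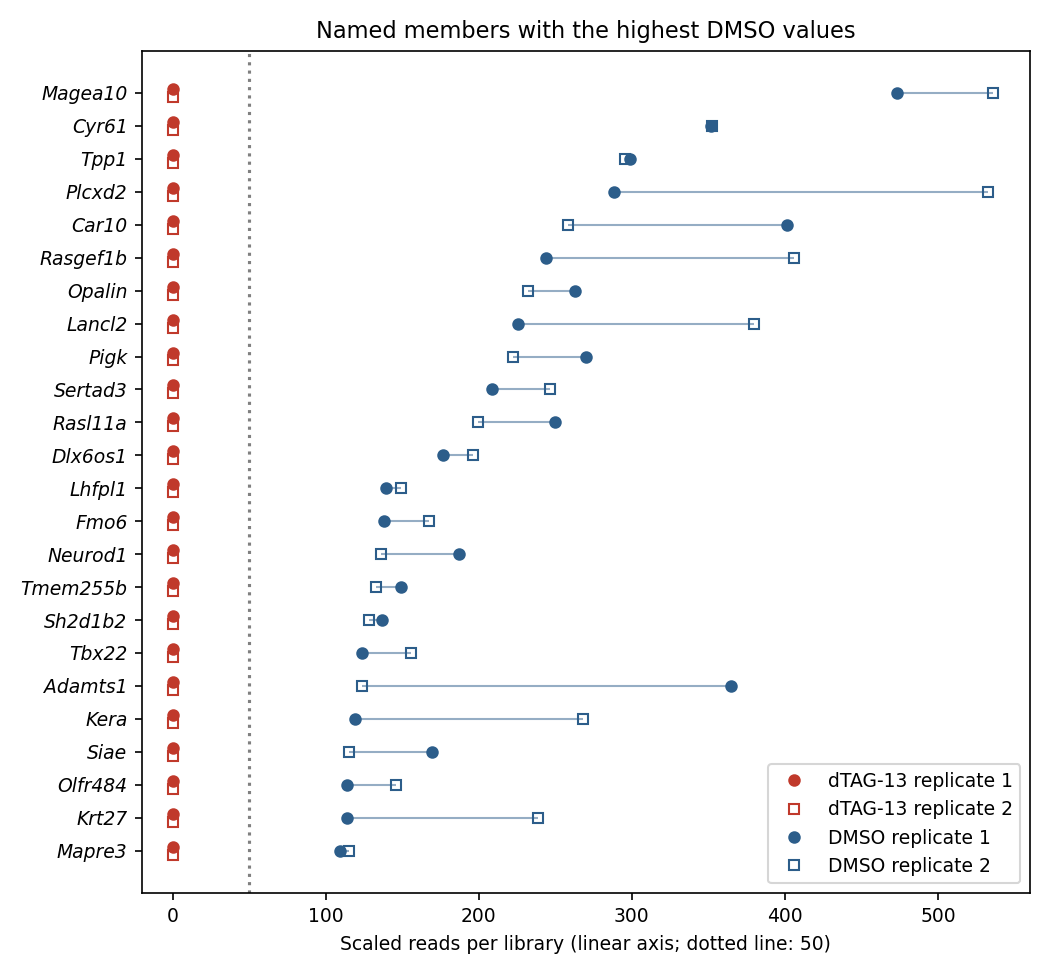
Scaled reads per library (horizontal axis, linear) of the 24 named genes with the highest lower DMSO value, with dTAG-13 libraries in red and DMSO libraries in blue. Every red point lies at 0, and the DMSO points lie between 109.3 (Mapre3) and 535.7 (Magea10).

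The gene with the highest lower DMSO value was Magea10 (chromosome X, 72381870 to 72386858 in GRCm38), of a gene family known from testis and tumours. Magea10 had 0 and 0 scaled reads under dTAG-13, compared with 473.1 and 535.7 under DMSO, and was thus at least 255-fold lower. Both DMSO pools were high and close to each other, with a mean of 504.4 ± 44.2 scaled reads (SD, n = 2).

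Secreted and matrix genes numbered 6. Cyr61 (Ccn1, chromosome 3, 145646976 to 145649981) encodes a matrix-associated signalling protein and had 0 and 0 scaled reads under dTAG-13, compared with 351.8 and 352.2 under DMSO. Adamts1 (chromosome 16, 85793827 to 85803113), a secreted metalloproteinase known from ovulation, had 0 and 0 scaled reads under dTAG-13 against 365.0 and 123.4 under DMSO. Kera, which encodes the corneal proteoglycan keratocan, had 0 and 0 under dTAG-13 against 118.9 and 267.8 under DMSO. The DMSO pools were nearly equal for Cyr61 and differed more than 2-fold for Adamts1 and Kera. Tectb, a gene of the tectorial membrane of the inner ear, Col28a1, a collagen, and Metrnl, a secreted factor, had DMSO values of 50.3 to 116.9 scaled reads.

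Transcription factors and cofactors numbered 13, and several are known as regulators of a single tissue. Sertad3, a coactivator with a SERTA domain, had 0 and 0 scaled reads under dTAG-13, compared with 208.9 and 246.7 under DMSO. Neurod1, a helix-loop-helix factor of neurons and pancreatic endocrine cells, had 0 and 0 under dTAG-13 against 187.3 and 136.4 under DMSO. Tbx22, a T-box factor of the developing palate, had 0 and 0 under dTAG-13 against 123.7 and 155.8 under DMSO. In all 3 genes the DMSO pools lay within 2-fold of each other. Nr2e3, a receptor-type factor of photoreceptors, had 91.3 and 123.4 scaled reads in the DMSO libraries, and Vsx1, a homeodomain factor of retinal bipolar cells, had 82.9 and 90.9. Six2 of kidney progenitors, Hoxd10 of limb and spinal cord patterning, Ripply2 of somite formation and the retinoid receptor gene Rxrg had DMSO values between 50.4 and 97.4 scaled reads. Vgll3, a cofactor of TEAD proteins, had 56.4 and 188.3, the widest gap among the 13. The zinc finger genes Zfp146 and Zfp870 had DMSO values between 64.9 and 115.3.

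Immune and inflammatory genes also numbered 13. Sh2d1b2, a signalling adaptor of natural killer cells, had 0 and 0 scaled reads under dTAG-13, compared with 136.9 and 128.2 under DMSO. Tlr1, a Toll-like receptor for bacterial lipoproteins, had 0 and 0 under dTAG-13 against 103.3 and 209.4 under DMSO. Casp8, the initiator caspase of death receptor signalling, had 0 and 0 under dTAG-13 against 85.3 and 282.4 under DMSO, and Nsmaf, an adaptor of the tumour necrosis factor receptor, had 0 and 0 under dTAG-13 against 99.7 and 303.5 under DMSO. The DMSO pools of Casp8 and Nsmaf differed more than 3-fold. Tnfaip3, a ubiquitin-editing inhibitor of NF-kB signalling, had 54.0 and 55.2 scaled reads in the DMSO libraries, the chemokine gene Cxcl1 had 57.6 and 50.3, and Sele, an adhesion molecule of activated endothelium, had 82.9 and 50.3. The receptor genes Cxcr3, Il12rb2, Siglecf, Cd209c, Klrb1f and Ms4a6d had DMSO values between 51.6 and 191.5. In the list of 10 blood and leukocyte markers, 6 genes were in the table. Their summed level was 1270 and 1021 scaled reads under dTAG-13 and 2191 and 2302 under DMSO, and Hba-a1, a haemoglobin gene, and Cd74 accounted for most of the sum in DMSO. Ptprc, the general leukocyte marker CD45, had 0 and 0 scaled reads under dTAG-13 and 0 and 26.0 under DMSO, and Tyrobp, Hba-a2, Hbb-bs and Hbb-bt were not analysed here. The part of such cells in these genes was not tested.

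Genes of the nervous system, synapses and ion channels numbered 11. Car10 (chromosome 11, 93098028 to 93601749), a carbonic anhydrase relative of the brain without enzyme activity, had 0 and 0 scaled reads under dTAG-13, compared with 401.1 and 258.1 under DMSO. Opalin, a membrane protein of myelinating oligodendrocytes, had 0 and 0 under dTAG-13 against 263.0 and 232.1 under DMSO. Channel and receptor genes of the group were Kcnd2, Trpc5, Scnn1g and the GABA receptor subunit gene Gabrg3, with DMSO values between 66.0 and 174.1. Frmpd4, Syndig1, Snph, Rgs7 and Gng4, which act at synapses or in G protein signalling, had DMSO values between 51.6 and 150.1 scaled reads. Gabrg3 was the lowest of the 115 matched genes per length, at 7.08 scaled reads per kb of exon.

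Keratin and hair follicle genes numbered 5. Krt27, a keratin of the inner root sheath of the hair follicle, had 0 and 0 scaled reads under dTAG-13, compared with 114.1 and 238.6 under DMSO. Krt81, a hair keratin, had 115.3 and 94.1 in the DMSO libraries and lies 5.15 kb from 1700011A15Rik (Krt88 in GENCODE M21), which had 79.3 and 84.4. These were the only genes of the 118 that were direct neighbours among genes of the table. Krt25 and Tchhl1 had DMSO values between 67.2 and 77.9. The transcript of Krt81 is at least 95% identical to those of Krt83, Krt86 and Krt87 over at least 50% of its length, so its reads may be shared. In a list of 12 other epidermal and hair follicle genes, chosen after the values were seen, Krt1, Krt5, Krt14 and Krt15 were among those not analysed here. Of the 6 that were tested, 0 were lower or higher by limma, beside 9.79% lower and 8.94% higher over all genes tested. Their median log2 fold change was -2.3, so the lack of calls does not show that they were unchanged. Of the markers of oviduct epithelium, 6 of 10 were in the table, with summed levels of 8167 and 7445 scaled reads under dTAG-13 and 5183 and 4600 under DMSO, mostly from Epcam. The odorant receptor genes Olfr484, Olfr1082 and Olfr107 and the vomeronasal receptor gene Vmn1r212 had DMSO values between 56.4 and 146.1 scaled reads, Olfr484 being the highest with 114.1 and 146.1.

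Enzymes and genes of organelles and transport numbered 16, and several of them act in most cells. Tpp1 (chromosome 7, 105744811 to 105752235), a protease of the lysosome, had 0 and 0 scaled reads under dTAG-13, compared with 299.0 and 295.4 under DMSO, at least 150-fold lower. Pigk (chromosome 3, 152714100 to 152980408), the catalytic subunit of the enzyme that attaches GPI anchors to proteins, had 0 and 0 under dTAG-13 against 270.2 and 222.4 under DMSO. Lancl2, a LanC-like gene, had 0 and 0 under dTAG-13 against 225.8 and 379.8 under DMSO. Each of the 3 genes had over 130 reads in each DMSO library, and the DMSO pools of Tpp1 hardly differed. Plcxd2, with a phospholipase C domain, had 0 and 0 under dTAG-13 against 288.2 and 532.4 under DMSO. Siae, a sialic acid esterase, had 169.3 and 115.3 scaled reads in the DMSO libraries, and Fmo6, of the flavin monooxygenases, had 138.1 and 167.2. Pts of tetrahydrobiopterin synthesis, the mitochondrial transporter gene Abcb8, the lysosomal membrane gene Tmem9 and the proton pump gene Atp6v0e2 had DMSO values between 56.4 and 123.7. The liver transporter gene Slco1b2 and the intestinal sucrase-isomaltase gene Sis lay between 52.8 and 92.5. The remaining members were Acsbg1, Slc44a5, St8sia1 and Stard6, with 62.4 to 246.7. Of the Ras family signalling genes, Rasgef1b, an exchange factor, had 0 and 0 scaled reads under dTAG-13, compared with 243.8 and 405.8 under DMSO, and Rasl11a, a small GTPase, had 0 and 0 under dTAG-13 against 249.8 and 199.7 under DMSO.

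**Figure D3:**
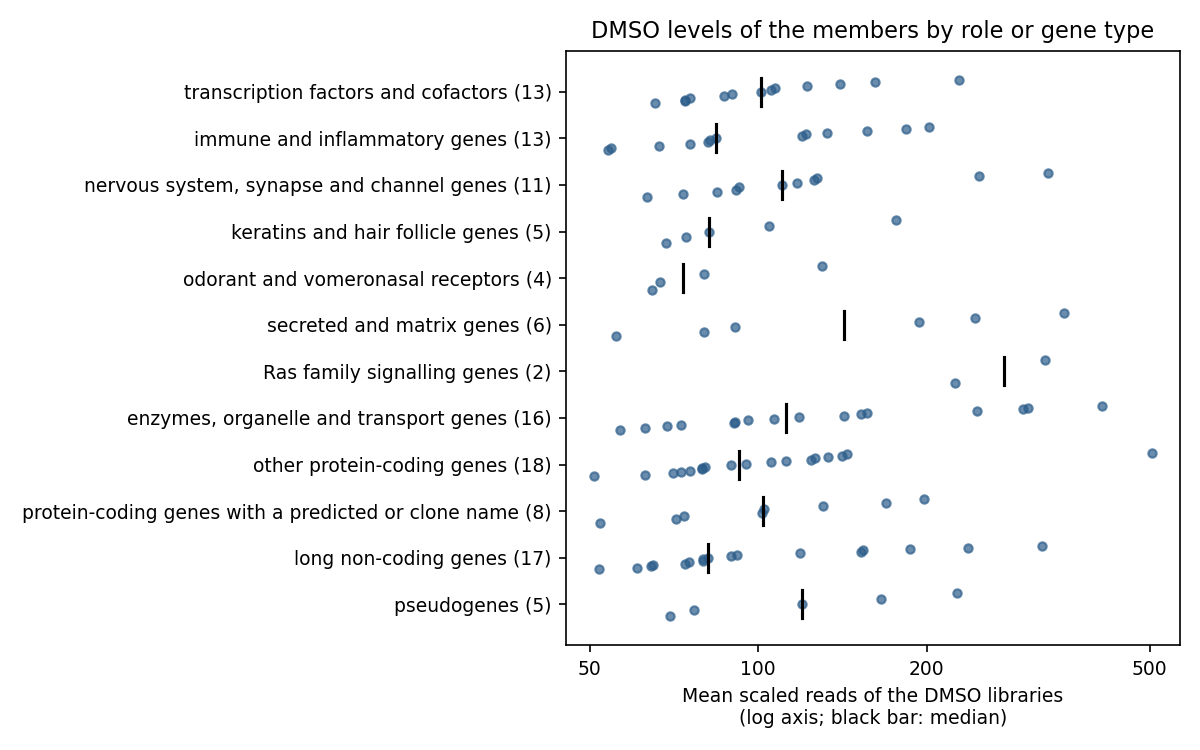
Mean scaled reads of the DMSO libraries (horizontal axis, log scale) for each of the 118 genes, by role or gene type, with the number of genes in brackets and a bar at the median. The groups overlap widely, with medians between 73.4 (odorant and vomeronasal receptors) and 274.8 (Ras family signalling genes).

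Among the other protein-coding genes, Lhfpl1, a tetraspan membrane protein gene, had 0 and 0 scaled reads under dTAG-13, compared with 139.3 and 149.3 under DMSO. Tmem255b, a transmembrane protein gene, had 0 and 0 under dTAG-13 against 148.9 and 133.1 under DMSO. Mapre3, which encodes a protein of growing microtubule ends, had 0 and 0 under dTAG-13 against 109.3 and 115.3 under DMSO. For these 3 genes the DMSO pools were close to each other. Muc15, Mmd, Serpinb8, Lgals12, Prkcb, Shisa3, Gypc, Stpg1, Mtss1l, Uts2r, Nudt16l1, Lhfp, Ly6g6c and Coro2b were the other named coding genes, with DMSO means between 51.0 scaled reads (Coro2b) and 133.4 (Prkcb). DMSO means lay between 52.2 and 197.8 scaled reads in 8 coding genes with a predicted or clone name, between 52.0 and 321.7 in 17 long non-coding genes, and between 69.6 and 226.3 in 5 pseudogenes. Dlx6os1, a long non-coding RNA antisense to the homeobox gene Dlx6, had 0 and 0 scaled reads under dTAG-13 against 176.5 and 196.4 under DMSO. Gm11264 had 0 and 0 under dTAG-13 against 482.7 and 160.7 under DMSO, and E230016K23Rik had 0 and 0 under dTAG-13 against 141.7 and 332.8 under DMSO. Gm19461 had 0 and 0 under dTAG-13 against 105.7 and 131.5 under DMSO. Its transcript matches one of Plekha6, a gene that overlaps it on the opposite strand, so reads may be shared. Near-identical transcripts of another gene, at the same locus or elsewhere, were found for 8 of the 118 genes, and the values of these 8 are uncertain. They were Krt81, Gm19461, Il12rb2, Stard6, Gm4302, 4930486L24Rik and the pseudogenes Rpl7a-ps7, which resembles Rpl7a, and Obox4-ps31, which has 24 such relatives. Plekha6 and Serbp1, the matches of Gm19461 and Il12rb2, overlap them on the opposite strand. The search did not set such overlaps apart from copies elsewhere.

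The DMSO pools were close to each other for most of the 118 genes. In 93 genes (78.8%) DMSO replicates lay within 2-fold, and the median absolute log2 ratio between them was 0.437. Among other genes with a lower DMSO value of 50 to 200 scaled reads, 58.8% lay within 2-fold and the median was 0.838. That range bounds only the lower value. Median DMSO levels there were 139 and 136 scaled reads, against 85.9 and 99.8 for the 118. The selection used the same DMSO values, so nothing is read from this comparison. Among all other genes with at least 50 scaled reads in both DMSO libraries, 75.7% lay within 2-fold and the median was 0.567. The widest gap was that of the predicted gene Gm4985, with 61.2 and 334.4 scaled reads.

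At the edge of the selection, 5 genes shared the lowest value of 50.3 scaled reads, which is 31 reads in DMSO replicate 2. They were Sele, Metrnl, Cxcl1, 4930502E18Rik and Coro2b. Just outside it, 1700039E15Rik had 49.2 and 58.4 scaled reads in the DMSO libraries, Olfr293 had 52.8 and 48.7, and Fam217a had 133.3 and 48.7, each with 0 reads in both dTAG-13 libraries. Genes with a single read in dTAG-13 also lay outside, such as Gm8711, which had 0 and 0.7 scaled reads under dTAG-13 and 544.0 and 404.2 under DMSO.

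The share of genes without reads was smaller at higher DMSO levels. Of 9323 genes with at least 50 scaled reads in both DMSO libraries and outside the families left out, 118 (1.27%) had 0 reads in both dTAG-13 libraries, 360 (3.86%) had 0 in exactly 1 of them, and 8845 (94.9%) had reads in both. Where the lower DMSO value was 50 to 100 scaled reads, 85 of 1509 genes (5.63%) had no read with dTAG-13. The share was 1.35% at 100 to 200 (22 of 1627) and 0.55% at 200 to 500 (11 of 1999). At 500 or more it was 0 of 4188 genes. Libraries of the same group also disagreed in this way. Of genes with at least 50 scaled reads in one dTAG-13 library, 1.93% and 1.86% had 0 reads in the other dTAG-13 library, and of genes with at least 50 in one DMSO library, 3.88% and 2.81% had 0 in the other DMSO library. The 2 kinds of share have different conditions, since the 118 genes were required to have reads in both pools of one group and none in both pools of the other. In the 360 genes at 0 in 1 dTAG-13 library the other dTAG-13 library had a median of 26.5 scaled reads, and 27.8% of them had at least 50.

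**Figure D4:**
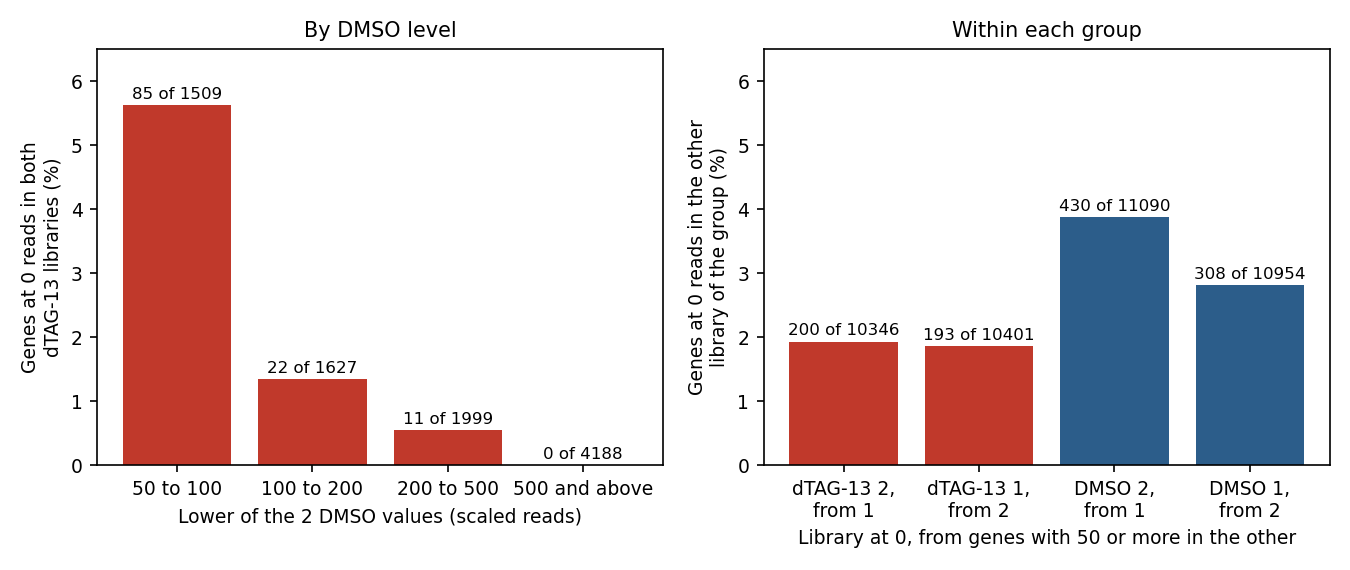
Left, share of genes (percent) at 0 reads in both dTAG-13 libraries by the lower DMSO value in scaled reads; right, share of genes with at least 50 scaled reads in one library of a group that had 0 in the other library of that group. Bars on the left go down from 5.63% at 50 to 100 to 0 of 4188 genes at 500 and above, and the within-group bars lie between 1.86% and 3.88%.

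Genes next to the 118 had mostly negative fold changes, a comparison made after the values were seen. The nearest gene of the table on each side within 100 kb, itself outside the set, was taken; 124 such genes were tested by limma. Their median log2 fold change, on the log2(scaled reads + 1) scale, was -1.81, against -0.10 for all genes tested, and 98 of 124 (79.0%) had a negative value, against 51.7% of all. At an adjusted p under 0.05, 18 were lower (14.5%, against 9.79% of all genes) and 4 were higher (3.23%, against 8.94%). Neighbours within 100 kb of the other genes with a lower DMSO value of 50 to 200 scaled reads had a median of 0.15, with 8.45% lower and 9.66% higher. These comparison neighbours lay outside the 118 but could themselves belong to that range, so the 2 choices were not fully alike. For the 118, without neighbours that overlap the gene, the median was -1.65 in 110 genes. It was -2.04 in 56 on the same strand and -1.36 in 54 on the opposite strand. Median levels of the 124 were 57.5 and 54.7 scaled reads under dTAG-13 and 115 and 157 under DMSO.

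The negative medians were found at short distances. Tested genes under 50 kb from one of the 118 had a median log2 fold change of -1.54 (162 genes, 73.5% negative). The median was -0.47 at 50 to 100 kb (127 genes) and -0.32 at 100 to 250 kb (312 genes), and it was 0.12 at 250 to 500 kb (497 genes). Beyond 5000 kb it was -0.09 in 9131 genes. Neighbours share annotation, local sequence and, where they overlap, reads, and the cause of this pattern was not tested.

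**Figure D5:**
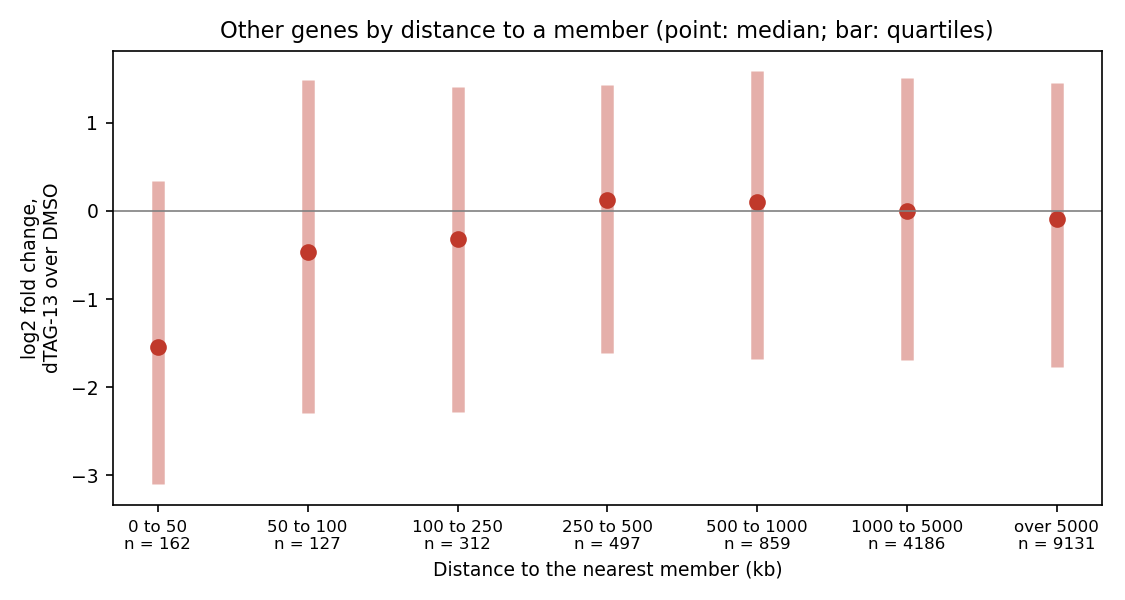
Log2 fold change of dTAG-13 over DMSO (vertical axis) of tested genes outside the set by distance in kb to the nearest of the 118 genes (horizontal axis), with points at the median and bars over the middle quartiles. The median is -1.54 under 50 kb and lies between -0.09 and 0.12 in the bins from 250 kb on.

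Examples of neighbours, named after their values were seen, came from several of the groups above. Lum, the proteoglycan gene next to Kera, had 0 and 0 scaled reads under dTAG-13, compared with 51.6 and 40.6 under DMSO. Taf10, a TFIID subunit gene 0.45 kb from Tpp1, had 1728 and 1455 under dTAG-13 against 4411 and 5983 under DMSO, a log2 fold change of -1.70 (adjusted p = 0.028, limma). Vac14, a lipid kinase scaffold gene 1.08 kb from Mtss1l, had 31.7 and 27.2 under dTAG-13 against 285.8 and 237.0 under DMSO. Gabra3, a GABA receptor gene 45.8 kb from Magea10, had 604.6 and 836.2 under dTAG-13 against 2475 and 4235 under DMSO. These 4 genes were picked by their values, so nothing is read from the lack of overlap between their groups. The share of all tested genes without such overlap was not counted. The 4 neighbours that were higher were Znhit6 near Cyr61, Ddah2 near Ly6g6c, Pla2g16 near Lgals12 and Serbp1, which overlaps Il12rb2 and matches its transcript in sequence. Znhit6 had 7339 and 10088 scaled reads under dTAG-13, compared with 3765 and 2764 under DMSO.

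Partners and relatives of 12 of the 118 genes were chosen after the values were seen. Of 74 such genes 52 were in the table and 51 were tested; 3 were lower and 4 higher by limma, beside 9.79% lower and 8.94% higher over all genes tested, and nothing is read from these counts. The list for Tpp1 held 8 lysosomal genes, of which 4 were higher (Ctsa, Ctsb, Ctsz and Lamp2) and 4 did not pass. The log2 fold changes of those that did not pass were 0.95 for Ctsl, -0.74 for Ctsd, -1.28 for Ppt1 and -1.04 for Lamp1. Lamp2, a lysosomal membrane protein, had 19523 and 20115 scaled reads under dTAG-13, compared with 3216 and 2626 under DMSO (log2 fold change 2.77 ± 0.232 SE, adjusted p = 0.0219, limma). Of 4 other subunits of the Pigk enzyme 3 were tested, Gpaa1, Pigs and Pigu, with adjusted p of 0.865, 0.137 and 0.389 by limma; Pigt was under the filter on low values. Pigu had 210.9 and 263.6 scaled reads under dTAG-13, compared with 414.3 and 310.0 under DMSO, and Pigs had 498.9 and 1230 under dTAG-13 against 371.1 and 131.5 under DMSO. The 3 lower genes were Ripk1, a kinase that acts with Casp8, Lancl1, a relative of Lancl2, and the chemokine gene Cxcl10. Cxcl10 had 101.4 and 58.6 scaled reads under dTAG-13, compared with 997.9 and 532.4 under DMSO (log2 fold change -3.22 ± 0.603 SE, adjusted p = 0.0314, limma). Of 12 subunits and inhibitors of NF-kB, listed for Tnfaip3, 0 passed by limma; Nfkbia, the inhibitor IkB alpha, had 25.5 and 235.7 under dTAG-13 against 1858 and 1250 under DMSO (adjusted p = 0.0543).

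None of the 118 genes was on the marker lists of the 2-cell embryo, cumulus and granulosa cells, sperm and testis, oviduct epithelium, blood and leukocytes, or on the lists of oocyte transcripts and Y-linked genes. Summed levels of 6 cumulus and granulosa markers in the table were 5234 and 3122 scaled reads under dTAG-13 and 2103 and 657.4 under DMSO, with Nr5a2 giving most of the sum under dTAG-13, and Fshr, Foxl2 and Amh were not analysed here. The other markers of this list were mixed. Ptx3 had 0 and 0 under dTAG-13 against 34.8 and 50.3 under DMSO, and Star had 44.2 and 90.0 against 0 and 0. Values of Tnfaip6, Gatm and Cyp19a1 overlapped between the groups. Summed levels of 7 sperm and testis markers were 1334 and 781.8 under dTAG-13 and 751.7 and 561.6 under DMSO, mostly from Ldhc. Ldhc was higher in both dTAG-13 libraries, while Prm2 and Tnp1 were lower in both, and values of Odf1 and Acrv1 overlapped between the groups. Akap4 and Pgk2 had 0 reads in both dTAG-13 libraries. Under DMSO, Akap4 had 87.7 and 0 scaled reads and Pgk2 had 127.3 and 19.5. Summed levels of 25 oocyte transcripts were 109000 and 101900 scaled reads under dTAG-13 and 572600 and 844700 under DMSO. Btg4, Omt2a and Tcl1b1 gave most of the sum under DMSO. Zp3 went the other way, with 2713 and 3140 under dTAG-13 against 1589 and 844.1 under DMSO. Values of Zp1, Mos, Padi6 and Tle6 overlapped between the groups.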

How the data were processed

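The table held scaled reads for 18714 genes in 4 libraries, 2 per group. The submitters' processing notes name mm10, HTSeq, DESeq, Picard and bcl2fastq, with aligner and annotation not given in the sources used here. Signal values, as deposited by the authors, are read counts over a library size factor; dividing a column by its lowest non-zero value gave whole reads for 100% of its values (tolerance 1e-04 reads). The authors' deposited table gives p-values and log2 ratios of treated over DMSO.

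The genes, groups and lists were chosen with earlier results of these data known. The fit over all genes used limma 3.58.1 in R 4.3.3 on log2(scaled reads + 1) for 15978 genes whose mean reached 10 scaled reads. It was two-sided and Benjamini-Hochberg adjusted. All 118 genes passed the filter on the mean through their DMSO values alone. The fit was also run on simulated counts with the same fixed spread for every gene, which was not estimated from these pools. That run does not check the calls made here. Alternatives used edgeR 4.0.16 and DESeq2 1.42.0 on recovered reads. Gene models came from GENCODE M21 (GRCm38) by gene ID without version, promoters from RefSeq (GRCm38.p6) by symbol, and similar transcripts from BLAST 2.17.0. Members named are the 24 with the highest lower DMSO value (predicted genes, clone names and pseudogenes apart), the 3 highest predicted or clone-named, those at the limits of the selection, and the direct neighbours; further ones were named after their values were seen to describe the groups. Some genes of the set are not reported here by name.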

Additional observations from a re-analysis of the deposited data

How the results depend on the processing

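The number of genes depends on the limits of the selection. It was 290 at a minimum of 20 scaled reads, 216 at 30, 33 at 100, 11 at 200 and 67 at 50 whole reads, and 112 with TMM factors, 137 with up to 1 read and 167 with up to 3 reads allowed in each dTAG-13 library. With 1 library left out of the selection it lay between 283 and 341. The following counts of lower calls were fixed in part by the selection and support nothing. All 118 were lower in the DESeq2 fit and 70 in the edgeR fit. With a mean of at least 50, 58 were tested and 58 were lower. With the replicate number as a block (replicate block), 89 were lower; same-numbered libraries did not deviate together (r = -0.0142 across 15978 genes, with 2 pairs). With 1 library left out, between 0 and 118 were lower. It was 0 without either dTAG-13 library, where limma called 0 genes in all, with adjusted p of 0.189 to 0.22 for these genes.

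Over all genes, 2650 were lower and 2406 higher with DESeq2, and 380 lower and 209 higher without a trend. With 1 library left out, 0 to 773 were lower and 0 to 360 higher; at an unadjusted p under 0.05, limma placed 2171 lower and 1348 higher without dTAG-13 replicate 1, and 2471 lower and 1408 higher without dTAG-13 replicate 2. The median of neighbours was -1.37 with a pseudocount of 10, -1.41 with a mean of at least 50, -1.43 with edgeR and -1.48 with DESeq2, all chosen after seeing the data, and -2.0 to -1.41 with 1 library left out. No result reversed. Few reads limit the lowest genes, which rest on 31 reads in a DMSO library.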
